A study of Rattus norvegicus with 4 samples.

Results

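Penk and Trh are the genes of precursor proteins from which neuropeptides are cut, and both were measured here in the left ventricle of the rat heart. The members are all probe sets of the deposited value table whose platform gene symbol is Penk or Trh: 1 probe set for Penk (S49491_s_at) and 2 for Trh (M36317_s_at and M23643cds_s_at), 3 of 8799 probe sets in all and 2 of the 4736 genes with a symbol of their own. Total RNA was measured on 4 Affymetrix RG_U34A arrays, 1 for each of 4 groups, so no value has a replicate and no difference has a test. Both genes were chosen by their measured intensities on these 4 arrays, and their differences between groups are therefore given as a description.

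The first group was terminal heart failure, whose title names no genotype. The second was dTGR, rats transgenic for both human renin and human angiotensinogen, which are hypertensive, have enlarged hearts and lose protein in the urine. The third was dTGR treated with losartan, an antagonist at the AT1 receptor of angiotensin II, and the fourth was the Sprague Dawley rat (SD control), the only group whose title names no transgene or disease. The transgenic rat is described in identical words for all 4 samples, the control included. The promoters of the transgenes, the dose and length of losartan treatment, the ages and the number of animals per array are not stated in the labels. The arrays were made on whole ventricle, so more cells of a type and more RNA per cell cannot be told apart in any value below.

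Proenkephalin, the product of Penk, holds several copies of the opioid pentapeptide Met-enkephalin and a copy of Leu-enkephalin, which act mainly on delta and mu opioid receptors. The rat ventricle is known as a site of abundant Penk mRNA outside the nervous system. Prothyrotropin-releasing hormone, the product of Trh, holds repeated copies of a short sequence that is cut out, cyclised and amidated to give the tripeptide TRH. TRH is best known from the hypothalamus, where it drives the release of thyrotropin, and it has also been described in the rat heart. Both precursors pass through the secretory pathway and need prohormone convertases and carboxypeptidases, and TRH also needs the amidating enzyme PAM.

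The RefSeq promoter table of the GRCr8 build held 1 of both genes, Trh. Its 250 bases before the annotated start are chr4:126301763-126302012 on the minus strand, written below from the far end towards the gene. They are shown because several of the transcription factors followed further below bind DNA elements of the kinds searched for. Capitals mark the matches.

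Trh promoter: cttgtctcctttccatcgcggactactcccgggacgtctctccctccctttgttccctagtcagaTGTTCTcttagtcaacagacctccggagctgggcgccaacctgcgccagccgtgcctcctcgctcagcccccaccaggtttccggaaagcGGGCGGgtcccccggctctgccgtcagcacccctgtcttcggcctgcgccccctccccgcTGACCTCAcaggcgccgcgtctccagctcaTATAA

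The motifs named here were, on both strands, searched for, and the matches did not overlap. TGACCTCA, known from the Trh promoter as Site 4, where thyroid hormone receptor and CREB proteins bind, matched once and began 35 bases before the start. This octamer was found in 2.31% of the 33469 promoters of the same length. TGTTCT, the hexamer of glucocorticoid receptor elements, matched once at 185 bases before the start and occurs in 17.5% of promoters. GGGCGG, the GC box of Sp1, matched at 95 bases (30.5% of promoters) and TATAA, the core of a TATA box, at 5 bases (24.0% of promoters). The TATAA match lies directly before the annotated start, from which all positions are counted. Whether it acts as a TATA box was not tested. The full cyclic AMP response element TGACGTCA (1.59% of promoters), the AP-1 element TGANTCA (6.34%) and the STAT element TTCNNNGAA (7.67%) are not in these letters.

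The arrays were close to a common scale, with trimmed means of 200.2 to 200.3. A value counted as above the floor when it exceeded 26.0, the 40th percentile of all values, which 58.2% of probe sets did on the terminal heart failure array, 63.5% on the dTGR array, 59.1% on the losartan array and 59.1% on the SD control array. The dTGR array was washed and stained with another fluidics protocol (FlexGE-WS2, with 0 cycles of the first washes and 0 seconds of first stain) than the other 3 (EukGE-WS2, with 10 and 4 cycles and 600 seconds), and its 100 brightest probe sets held 46.3% of its signal, against 31.8% to 36.9% on the others. The terminal and losartan arrays shared a chip lot, the dTGR and SD control arrays shared another, and only the terminal array had a separate run day. Ratios of 3' to 5' signal of the Gapdh control were 1.28 for terminal heart failure, 1.73 for dTGR, 2.17 for losartan-treated dTGR and 1.35 for SD control. Of the cardiomyocyte markers, 10 of 10 were above the floor on every array.

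Penk was bright on all 4 arrays. Its intensity was 2065 in terminal heart failure, 3001 in dTGR, 863 in losartan-treated dTGR and 327 in SD control. The dTGR array was thus the highest and the SD control array the lowest, with the losartan array between the untreated transgenic array and the control. Even in SD control the value was 12.6 times the floor and above 84.6% of probe sets, and in dTGR it was above 97.5% of them.

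Trh was dim everywhere except in terminal heart failure. Probe set M36317_s_at gave an intensity of 300.2 in terminal heart failure, 15.1 in dTGR, 29.1 in losartan-treated dTGR and 40.01 in SD control. Probe set M23643cds_s_at gave 141 in terminal heart failure, 48.7 in dTGR, 34.7 in losartan-treated dTGR and 27.0 in SD control. Both had the terminal array as the highest, and they gave the other 3 arrays in opposite order, at values between 0.579 and 1.87 times the floor. The order of Trh among dTGR, losartan-treated dTGR and SD control is therefore not settled by these probe sets. The terminal values lay above 84.2% and 73.3% of probe sets on that array.

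**Figure D1:**
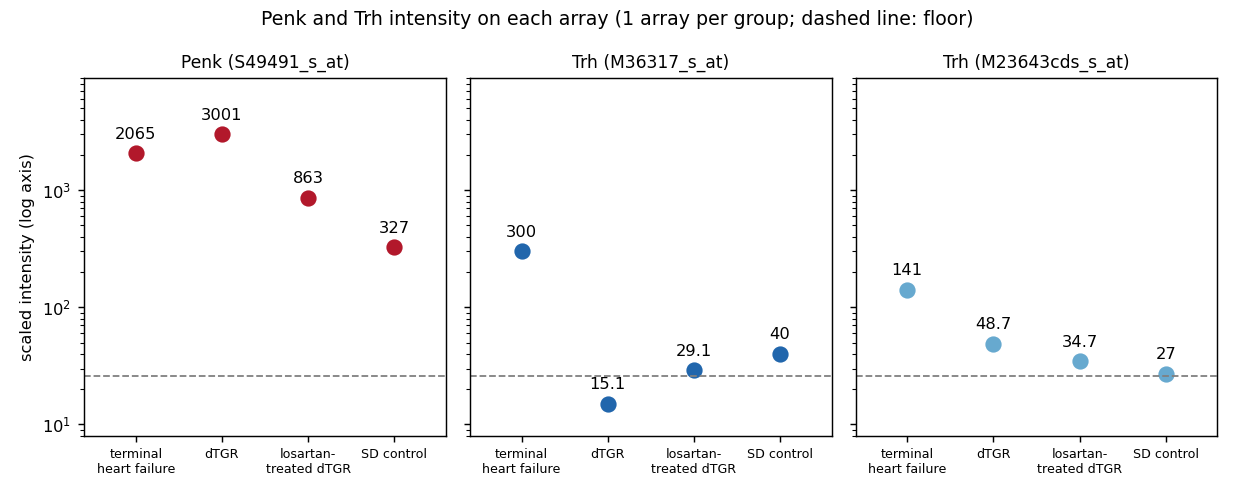
Scaled intensity (log axis) of the Penk probe set and both Trh probe sets on the 4 arrays, 1 point per array, with the floor of 26.0 as a dashed line. Penk stands far above the floor on all arrays with its highest value of 3001 in dTGR, while both Trh probe sets stand clear of the floor in terminal heart failure, at 300.2 and 141.

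In terminal heart failure against SD control, all 3 probe sets were at least 2-fold higher, where 7.36% of the 4685 probe sets above the floor on either array were. Penk was 6.32-fold higher, with 2065 in terminal heart failure and 327 in SD control. Trh was 7.50-fold higher on M36317_s_at and 5.24-fold higher on M23643cds_s_at. On the log2 scale these differences were 2.66, 2.91 and 2.39. Probe sets of the same gene spread around the mean difference of their gene with an SD of 0.56, over 987 genes with several probe sets. This SD comes from the same arrays, so it does not measure variation between animals or between hybridizations. Among these 4685 probe sets, counted from the highest difference, Trh stood at rank 22 and 49 and Penk at rank 35. This comparison was between chip lots and run days.

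In dTGR against SD control, Penk alone of both genes was past 2-fold, and it was 9.18-fold higher (3001 in dTGR, 327 in SD control) with a log2 difference of 3.20. In all, 7.98% of the 5014 probe sets above the floor passed 2-fold upwards, and Penk stood at rank 6 from the top. Both arrays came from the same chip lot and run day, and they differed in the fluidics protocol. Cardiomyocyte markers were higher in dTGR too, and summed to 220800 in dTGR and 113400 in SD control, with a median log2 difference of 0.91 over 10 genes. Their part in the Penk value was not tested. With the arrays scaled to the same median in place of the same trimmed mean, the Penk difference was 2.96, and over all genes 159 were higher and 379 lower in dTGR than in SD control, against 278 higher and 212 lower as reported here. Trh was not past 2-fold on either probe set, with log2 differences of 0.85 on M23643cds_s_at and -0.62 on M36317_s_at, and for M36317_s_at the dTGR value lay under the floor.

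In terminal heart failure against dTGR the genes parted. Penk was 1.45-fold lower in terminal heart failure, with 2065 there and 3001 in dTGR, a log2 difference of -0.54 and short of 2-fold. The SD between probe sets of a gene, which holds no variation between animals, was 0.66 in this comparison. Trh was at least 11.5-fold higher on M36317_s_at, a lower bound since dTGR lay under the floor, and 2.90-fold higher on M23643cds_s_at. In all, 8.28% of the 5036 probe sets above the floor passed 2-fold upwards. This comparison crossed chip lots, run days and fluidics protocols. Cardiomyocyte markers were lower in terminal heart failure as well, at a sum of 106300 there and 220800 in dTGR, with 5 of 10 past 2-fold lower and a median log2 difference of -1.01. Their part in the Penk and Trh differences was not tested. Penk and Trh were thus both high in terminal heart failure relative to SD control, but only Penk was also high in dTGR. The dTGR array used here and in the comparison with SD control is the same array, and the terminal array likewise serves in 3 comparisons.

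**Figure D2:**
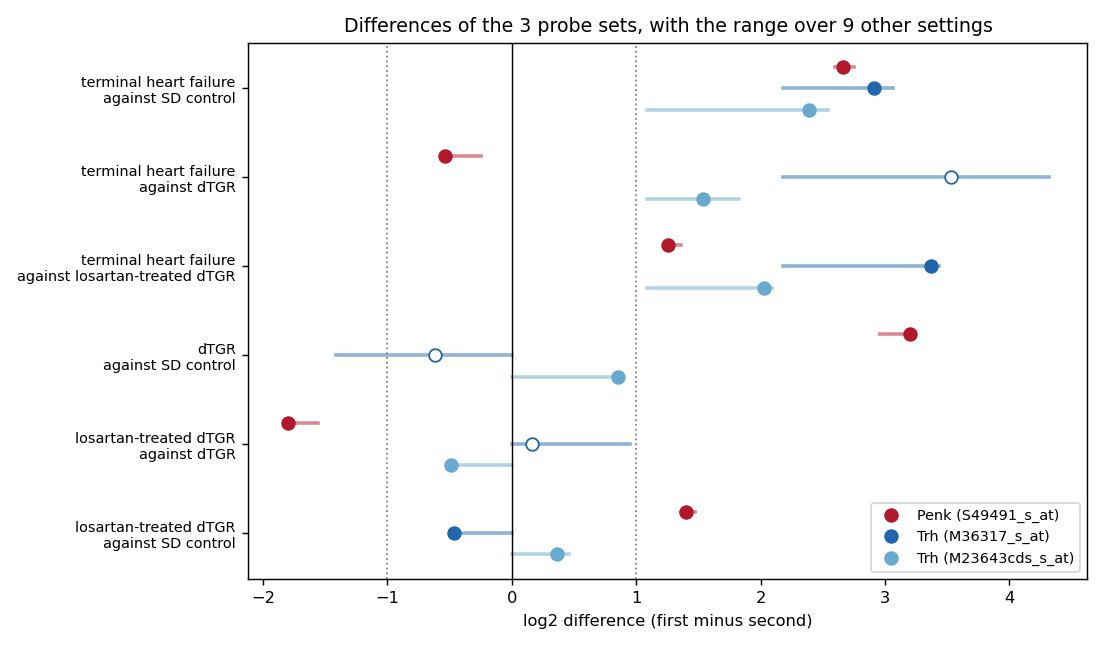
Log2 difference of each probe set in the 6 comparisons (points, open where a side lay under the floor), with the range over 9 other settings of scaling and floor as lines and 2-fold as dotted lines. The Penk difference of 3.20 in dTGR against SD control lies between 2.96 and 3.23 under the other settings. That of -0.54 in terminal heart failure against dTGR lies between -0.55 and -0.25. Penk lies above every floor used, so the floor settings leave it unchanged. The Trh differences that involve terminal heart failure stay past 2-fold on both probe sets.

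With losartan, Penk was lower than in untreated dTGR and higher than in SD control. Its intensity of 863 in losartan-treated dTGR was 3.48-fold lower than the 3001 in dTGR (log2 difference -1.80), where 10.4% of 5058 probe sets were at least 2-fold lower, and it stood at rank 83 from the bottom. Against SD control, 863 was 2.64-fold higher than 327 (log2 difference 1.40), where only 2.73% of 4682 probe sets were at least 2-fold higher, and it stood at rank 40 from the top. Terminal heart failure had 2.39-fold more Penk than the losartan array (2065 against 863). These arrays share a chip lot and fluidics protocol but differ in run day. The comparisons of the losartan array with dTGR and with SD control crossed chip lots, and that with dTGR also crossed the fluidics protocols. The 3' to 5' ratio of Gapdh was highest on the losartan array. Cardiomyocyte markers had a median log2 difference of -0.54 in losartan-treated dTGR against dTGR, with 1 of 10 past 2-fold lower. Their part in the Penk values was not tested.

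Trh on the losartan array lay near the floor and was not past 2-fold from dTGR or SD control on either probe set. The log2 differences were 0.16 and -0.49 against dTGR, where the 0.16 is a lower bound because the dTGR value lay under the floor (0.95 with no floor), and -0.46 and 0.36 against SD control, for M36317_s_at and M23643cds_s_at in that order. Terminal heart failure was higher than losartan-treated dTGR on both, 10.3-fold on M36317_s_at (300.2 against 29.1) and 4.08-fold on M23643cds_s_at (141 against 34.7). With Penk, all 3 probe sets were at least 2-fold higher in this comparison, where 8.94% of 4722 probe sets were.

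**Figure D3:**
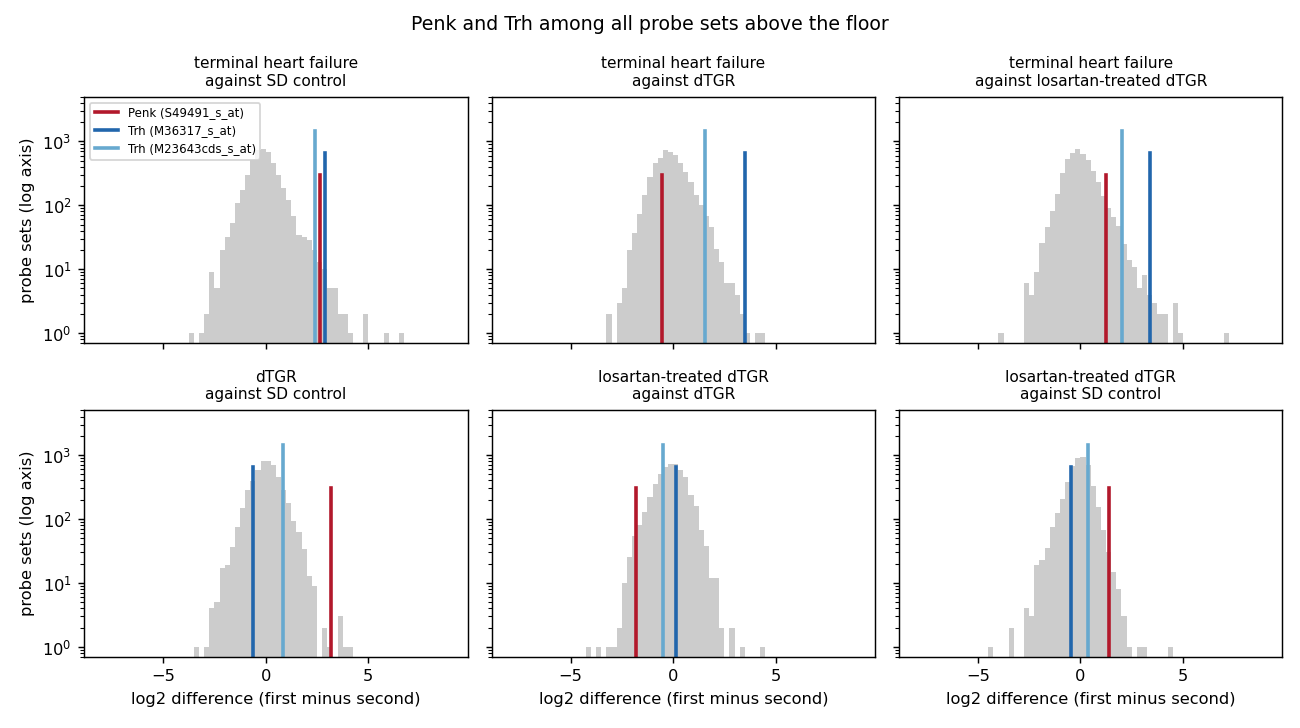
Distribution of the log2 difference over all probe sets above the floor on either array, 1 panel per comparison, with the number of probe sets on a log axis and the 3 members as coloured lines whose height has no meaning. In terminal heart failure against SD control all 3 lie in the upper tail, and in dTGR against SD control Penk alone does, at 3.20.

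For the gene lists that follow, 1 probe set stands for each gene, the brightest on average. As the background over genes, terminal heart failure against SD control had 6.38% at least 2-fold higher and 8.4% lower, 7.69% higher and 11.8% lower in terminal heart failure against dTGR, and 7.44% higher and 7.35% lower in terminal heart failure against losartan-treated dTGR. In dTGR against SD control 7.69% were higher and 5.87% lower, in losartan-treated dTGR against dTGR 5.9% were higher and 9.5% lower, and in losartan-treated dTGR against SD control 2.24% were higher and 4.86% lower. With array medians made equal, terminal heart failure against dTGR gave 442 genes higher and 226 lower, in place of 277 and 426, and losartan-treated dTGR against dTGR gave 340 higher and 219 lower, in place of 215 and 346. Medians over all genes were -0.14 in terminal heart failure against SD control, 0.03 in dTGR against SD control and -0.05 in losartan-treated dTGR against dTGR.

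Among the opioid precursors, Penk alone was at least 2-fold different between arrays that both lay above the floor, on the probe set that stands for each gene. Pdyn, the precursor of dynorphins, had 419 in terminal heart failure, 582 in dTGR, 622 in losartan-treated dTGR and 637 in SD control, all within 2-fold of each other on this probe set, while its other probe set differed by -1.19 between terminal heart failure and SD control. Pnoc, the precursor of nociceptin, had 486 in terminal heart failure, 902 in dTGR, 560 in losartan-treated dTGR and 960 in SD control, a log2 difference of -0.98 between terminal heart failure and SD control. Its other probe sets gave 0.00 to 0.51 there. Pomc, the precursor of beta-endorphin, was above the floor in dTGR only, at 85.0.

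Among the opioid receptors, Oprm1 (the mu receptor) had 89.4 and Oprd1 (the delta receptor) 59.2 in dTGR, and both lay under the floor on the other 3 arrays. The folds for dTGR against SD control are bounds of at least 3.44 and 2.28. For Oprm1 the other probe sets differed by -0.06 to 0.16 on the log2 scale, so the value rests on 1 of 4 probe sets. Oprk1 (the kappa receptor) and Oprl1 (the nociceptin receptor) were under the floor on all arrays. Of the 8 genes of the opioid list on the array, 6 were above the floor on dTGR or SD control, 4 of them passed 2-fold upwards in dTGR and 0 downwards, with a median of 1.45. Leaving Penk out, 3 of 5 were higher, all 3 of them under the floor in SD control, and the dTGR array had the largest share of probe sets above the floor.

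Of the TRH and thyroid list, 15 of 19 genes were on the array and 11 were above the floor in terminal heart failure or SD control. Trh was the 1 gene at least 2-fold higher there, 1 was lower and the median was -0.46. Trhr, the TRH receptor, had 47.5 in terminal heart failure, 112 in dTGR, 76.8 in losartan-treated dTGR and 77.5 in SD control, so it was not higher where Trh was. Its other probe sets had log2 differences of 0.00 in this comparison. Trhde, the ectoenzyme that degrades TRH, was under the floor in terminal heart failure and SD control, and had 27.1 in dTGR and 28.1 in losartan-treated dTGR, at the floor.

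Rxrg, a retinoid X receptor that pairs with thyroid hormone receptors, was the lower gene, with 365 in terminal heart failure and 1019 in SD control. It had 382 in dTGR and 997 in losartan-treated dTGR, and its other probe sets were also lower in terminal heart failure than in SD control, by 0.74 to 2.52 on the log2 scale. Thra, the main thyroid hormone receptor of the heart, had 293 in terminal heart failure, 325 in dTGR, 394 in losartan-treated dTGR and 463 in SD control, all within 2-fold on this probe set. On its other probe sets, losartan-treated dTGR had log2 differences of -1.11 to -0.85 against dTGR and -1.09 to 0.00 against SD control. Dio1 and Dio2, the deiodinases that activate thyroid hormone, were under the floor on all arrays. In dTGR against SD control 2 of 12 genes of the list were lower and 0 higher, the second being Tshr, the thyrotropin receptor, whose other probe sets gave 0.00 to 1.26 where the one used gave -1.77.

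Of 12 genes of prohormone processing on the array, 11 were above the floor on at least 1 array. Pam, the amidating enzyme that completes TRH, had 6842 in terminal heart failure, 8712 in dTGR, 6790 in losartan-treated dTGR and 5211 in SD control, within 2-fold on this probe set. Its other probe sets gave log2 differences of -1.94 to 0.00 in losartan-treated dTGR against dTGR and 0.00 to 1.75 in terminal heart failure against losartan-treated dTGR. Cpe, the carboxypeptidase that trims enkephalin and TRH intermediates, had 1194 in terminal heart failure, 1124 in dTGR, 1613 in losartan-treated dTGR and 1112 in SD control. Furin, a convertase of the Golgi, had 297 in terminal heart failure, 230 in dTGR, 315 in losartan-treated dTGR and 293 in SD control. On its other probe set, losartan-treated dTGR had log2 differences of -2.13 against dTGR and -2.24 against SD control. Terminal heart failure against losartan-treated dTGR gave 2.03 on that probe set. Pcsk2, a convertase of neuroendocrine granules that cuts both precursors, was above the floor in dTGR only (39.7). Pcsk1 was not analysed here. Of 8 granins and granule proteins on the array, 3 were above the floor in terminal heart failure or SD control, 0 of them were higher there and 1 was lower, with a median of -0.85. Vgf, a granin-like protein, had 51.5 in terminal heart failure, 74.1 in dTGR, 101.3 in losartan-treated dTGR and 72.6 in SD control, while Scg2 and Chgb were under the floor on all arrays. The lower gene was Snap25, a protein of vesicle fusion, under the floor in terminal heart failure and at 76.7 in SD control, with 0.00 on its other probe sets. Of 10 processing genes above the floor, 1 was higher and 1 lower in terminal heart failure against SD control, with a median of -0.03.

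The higher processing gene was Ctsl, cathepsin L, a protease of lysosomes that is also known to cut proenkephalin in secretory vesicles. It had 3617 in terminal heart failure, 1077 in dTGR, 1557 in losartan-treated dTGR and 1014 in SD control, 3.57-fold higher in terminal heart failure than in SD control, with a log2 difference of 0.86 on its other probe set. Cpd, a carboxypeptidase of the Golgi, had 1008 in terminal heart failure and 535 in SD control, 1.88-fold. The lower gene was Pcsk6, a convertase of constitutive secretion, with 233 in terminal heart failure and 709 in SD control, 3.04-fold lower and -1.26 on its other probe set. In dTGR against SD control 2 of 11 were higher, Pcsk5 (103 against 41.4) and Cpz (132 against 62.0), and 0 were lower. The other probe set of Pcsk5 gave a log2 difference of 0.00 there.

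Of 11 genes of peptide degradation above the floor in terminal heart failure or SD control, 1 was higher, 2 were lower and 8 were neither, with a median of -0.26. Ace, angiotensin-converting enzyme, which also cuts enkephalins, had 334 in terminal heart failure, 128 in dTGR, 95.1 in losartan-treated dTGR and 86.0 in SD control, 3.88-fold higher in terminal heart failure than in SD control. Anpep, aminopeptidase N, which removes the first tyrosine of enkephalins, was 2.59-fold lower (75.1 against 195), but its other probe sets gave log2 differences from 0.00 to 0.66. Dpp4, a dipeptidyl peptidase, was 3.08-fold lower (30.1 against 92.7), with a log2 difference of 0.00 on its other probe set. Mme, neprilysin, the best known enkephalin-degrading enzyme, was under the floor on all arrays.

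**Figure D4:**
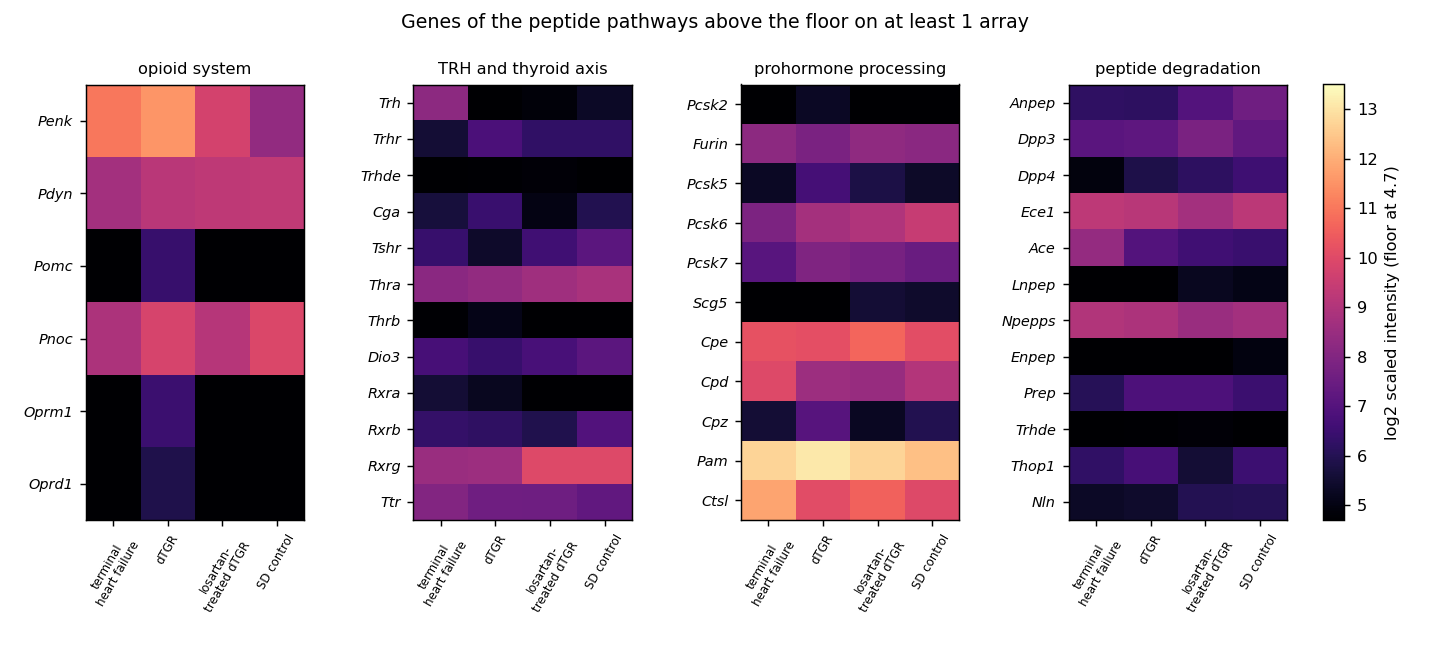
Log2 scaled intensity of the genes of 4 lists that were above the floor on at least 1 array, with arrays as columns and genes as rows, and black at the floor. Penk is bright on every array, Trh on the terminal array only, and Pam and Cpe are bright throughout, whereas the opioid receptors stand off the floor on the dTGR array alone.

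Other neuropeptide precursors were mostly dim. Of 23 on the array, 14 were above the floor on at least 1 array, and none of them reached 300 in any group. In terminal heart failure against SD control 1 of 11 was higher, and that was Gal, the precursor of galanin, at 95.5 in terminal heart failure, 28.0 in dTGR, 3.07 in losartan-treated dTGR and 8.001 in SD control, so terminal heart failure exceeded SD control at least 3.67-fold. Gal was thus, like Trh, highest on the terminal array and near or under the floor elsewhere. The 2 lower genes were Gnrh1, whose other probe sets gave -0.21 to 0.00, and Avp, whose other probe sets gave 0.00. Npy, a peptide of sympathetic nerves, had 135 in terminal heart failure and 110.0 in SD control, within 2-fold. In dTGR against SD control Adcyap1 and Hcrt were at least 2-fold higher and Gnrh1 lower, all at intensities of 38.9 to 180 in dTGR. Hcrt has 1 probe set, while the other probe sets of Adcyap1 gave 0.00 there and those of Gnrh1 -0.26 to 0.00.

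Of the peptide hormones of heart and vessels, Nppa, the precursor of atrial natriuretic peptide, was the gene whose profile over the 4 arrays was most like that of Penk. It had 11731 in terminal heart failure, 22028 in dTGR, 5403 in losartan-treated dTGR and 1759 in SD control. Nppb, the precursor of brain natriuretic peptide, had 2793 in terminal heart failure, 3804 in dTGR, 1995 in losartan-treated dTGR and 2050 in SD control, within 2-fold throughout. Adm, the precursor of the vasodilator adrenomedullin, had 239 in terminal heart failure, 107 in dTGR, 60.7 in losartan-treated dTGR and 53.2 in SD control. In terminal heart failure against SD control 2 of 6 genes of the list were higher (Nppa and Adm) and 1 was lower (Edn3), with a median of 0.55. Edn3 was under the floor in terminal heart failure and at 64.4 in SD control, with a log2 difference of 0.00 on its other probe set.

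Likeness was measured as the distance between log2 profiles over the 4 arrays, each centred on its mean, among the 3806 genes above the floor on at least 1 array. Nearest to Penk were Nppa (0.34), Thbs4, a matrix glycoprotein (0.69), Akip1, a protein that binds the catalytic subunit of protein kinase A (0.80), Cdo1, cysteine dioxygenase (0.95), and Scarb1, a receptor for high-density lipoprotein (1.01). Each of them was highest in dTGR and lowest in SD control, as Penk was, a likeness for which they were picked. Other probe sets of Nppa gave log2 differences of 3.69 to 4.21 in dTGR against SD control, so the direction did not rest on 1 probe set. The names depend on the treatment of low values: of these 5 genes, 2 were among the nearest 5 with the floor at the 25th percentile, 1 with no floor and 3 with a pseudocount of 16.

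Nearest to Trh (M36317_s_at) were Plb1, a phospholipase (0.57), Socs3, an inhibitor of cytokine signalling (0.77), Fos, an immediate early transcription factor (0.95), Lcn2, an iron-binding protein of inflammation (0.97), and Pla2g4a, the cytosolic phospholipase A2 (0.995). Each was highest in terminal heart failure, as Trh was, a likeness for which they too were picked. Lcn2 had 1467 in terminal heart failure, 154 in dTGR, 147 in losartan-treated dTGR and 99.1 in SD control, and Socs3 had 149 in terminal heart failure, 21.0 in dTGR, 16.03 in losartan-treated dTGR and 31.0 in SD control. Of these 5 genes, 3 were among the nearest 5 with the floor at the 25th percentile, 1 with it at the 60th, 2 with no floor, 3 with a pseudocount of 16 and 3 after quantile normalization. The distances describe these 4 arrays only.

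**Figure D5:**
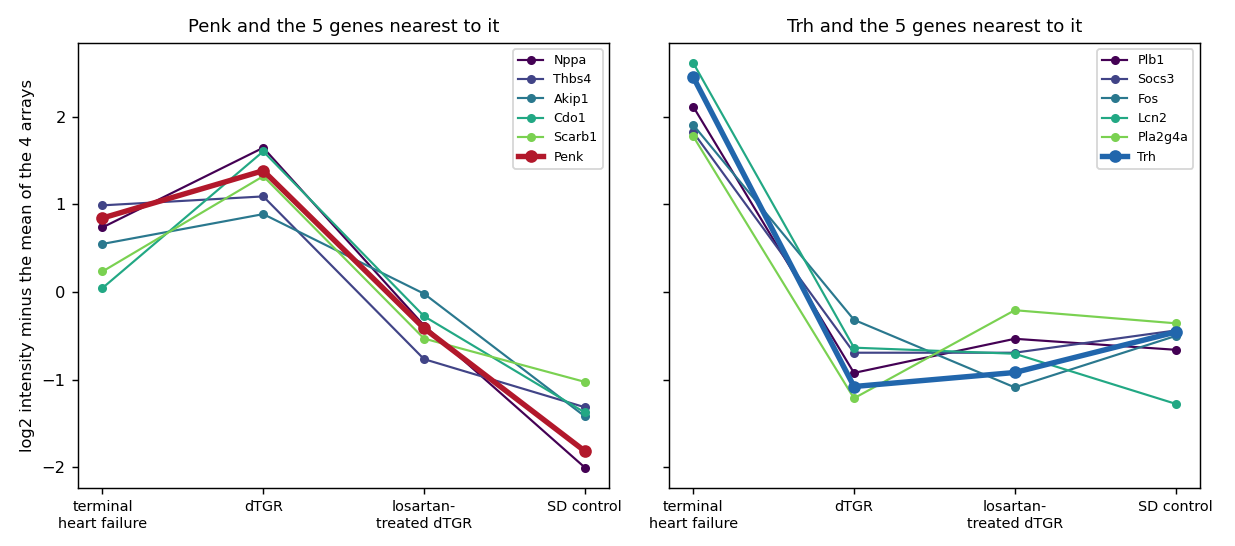
Log2 intensity minus the mean of the 4 arrays for Penk (left, red) and Trh (right, blue, probe set M36317_s_at) with the 5 genes nearest to each, 1 point per array. Penk and its neighbours peak in dTGR and are lowest in SD control, while Trh and its neighbours are high in terminal heart failure alone.

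Transcription factors known to bind the Penk or Trh promoter were followed as a list, of which 20 of 25 were on the array. In terminal heart failure against SD control 5 of 17 were higher by 2-fold or more and 1 lower (median 0.06). Against losartan-treated dTGR, on the same chip lot but another run day, 6 of 16 were higher and 1 lower (median 0.66). Atf3, a stress-induced member of the CREB family, had 528 in terminal heart failure, 168 in dTGR, 49.4 in losartan-treated dTGR and 49.2 in SD control. Fos, which pairs with Jun proteins at AP-1 sites, had 1061 in terminal heart failure, 227 in dTGR, 133 in losartan-treated dTGR and 199.9 in SD control, and its other probe sets gave log2 differences of 3.31 to 3.44 between terminal heart failure and SD control. Crem, a modulator of cyclic AMP responses, had 503 in terminal heart failure, 195 in dTGR, 89.8 in losartan-treated dTGR and 137 in SD control. Its other probe sets gave log2 differences of 0.00 to 2.18 between terminal heart failure and SD control. Egr1 and Junb, immediate early factors, were 2.99-fold and 2.57-fold higher in terminal heart failure than in SD control. The other probe sets of Egr1 gave log2 differences of 0.63 to 1.72 there, and that of Junb gave 0.90. The lower gene in both comparisons was Fosl2, a partner of Jun proteins, which was under the floor in terminal heart failure and had 62.8 in losartan-treated dTGR and 65.9 in SD control. Its other probe set gave log2 differences of 0.78 against SD control and -0.33 against losartan-treated dTGR.

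In dTGR, where Penk was highest, Atf3 was the 1 factor of 16 at least 2-fold higher than in SD control (3.40-fold), and Nr3c1, the glucocorticoid receptor, was the 1 lower. Other probe sets of Nr3c1 gave 0.00 to 0.69 there. In losartan-treated dTGR against dTGR 0 of 16 were higher and 6 were lower, with a median of -0.46. The lower were Atf3 (49.4 against 168), Junb (35.7 against 146), Crem (89.8 against 195), Nfix (257 against 695), Nr3c1 (37.1 against 75.0) and Nfic. Nfic had 52.7 in dTGR and lay under the floor in losartan-treated dTGR. The other probe sets of Nfix gave log2 differences of -2.20 to -1.73 there. That of Junb gave -0.54, those of Crem -0.74 to 0.00 and those of Nr3c1 -0.70 to 0.00. Creb1 itself was dim, at 26.1 in terminal heart failure, 55.7 in dTGR, 44.9 in losartan-treated dTGR and 39.9 in SD control. Stat3 and Atf2 were under the floor on all arrays.

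Markers of cells that could bring neuropeptide RNA into the sample were looked at beside these values. Of 18 neuronal markers on the array, 8 were above the floor in terminal heart failure and 11 on each of the other arrays, with summed intensities of 553 in terminal heart failure, 808 in dTGR, 632 in losartan-treated dTGR and 726 in SD control. The highest single value among these markers was 126, for Rtn1 in SD control, so the sums rest on dim signal. Of the enzymes of noradrenaline synthesis, Th had 65.8 in terminal heart failure and 68.1 in SD control, and Dbh was under the floor on both arrays. Markers of chromaffin cells summed to 419 in terminal heart failure, 308 in dTGR, 295 in losartan-treated dTGR and 269 in SD control, with Chgb under the floor and Pnmt, the enzyme that makes adrenaline, at 136 in terminal heart failure against 53.7 in SD control. The part of these cells in the Trh value was not tested.

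T cell and leukocyte markers, of interest since activated T cells express Penk, summed to 344 in terminal heart failure, 518 in dTGR, 407 in losartan-treated dTGR and 603 in SD control, with 5, 8, 6 and 9 of 11 above the floor in that order. Macrophage markers summed to 5135 in terminal heart failure, 3591 in dTGR, 3548 in losartan-treated dTGR and 3007 in SD control, and in terminal heart failure against SD control 4 of 6 were past 2-fold higher and 1 was lower. The lower one was Cd74, the invariant chain of MHC class II, with a log2 difference of -1.20 and -2.28 to -1.08 on its other probe sets. Atrial markers on the array were Nppa, Myl7 and Myl4, and Myl7, the atrial light chain, had 183 in terminal heart failure, 118 in dTGR, 64.9 in losartan-treated dTGR and 103 in SD control. Schwann cell markers summed to 715 in terminal heart failure, 692 in dTGR, 938 in losartan-treated dTGR and 785 in SD control. Fibroblast markers summed to 16320 in terminal heart failure, 14600 in dTGR, 17140 in losartan-treated dTGR and 16880 in SD control. Of these sums, Dcn alone held 11486 in terminal heart failure, 8709 in dTGR, 8214 in losartan-treated dTGR and 7671 in SD control. In terminal heart failure against SD control 1 of 10 was higher (Postn) and 3 were lower (Col1a1, Col3a1 and Lum). In dTGR against SD control 1 was higher (Postn) and 1 lower (Col1a1). Other probe sets of Col1a1 gave log2 differences of -0.75 to -0.29 there. Postn lay under the floor in SD control, so its folds against SD control are lower bounds. The part of these cells in the Penk and Trh values was not tested.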

How the data were processed

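The deposited table gives, per the file headers of the instrument records, values of 4 RG_U34A arrays, 1 intensity per probe set on a linear scale. The software the authors used is not given in the sources used here, nor are detection calls. Of 15281 deposited values from 1 to under 32, 13625 had a 0 and then a digit from 1 to 9 as decimals, as left by a spreadsheet that reads them as day and month. For Trh this touches 27.01, 15.07 and 29.05 (27.1, 15.7 and 29.5 with 1 decimal).

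Arrays were scaled to the mean of their trimmed means (2% off each end), values under the 40th percentile (26.0) were set to it, and log2 was taken. Left out were 59 controls, 1426 probe sets with no symbol and 308 with several, which leaves 7006 probe sets for 4736 genes, of which 6985 matched the rat gene table by gene ID. A call is a difference of at least 2-fold with 1 side above the floor. Alternatives used Python 3.11.15 and limma 3.58.1. The calls and distances were tested on simulated data with little noise and with changes only in genes well above the floor. That simulation does not cover changes near the floor or the spread seen between probe sets of a gene. Named genes were Penk, Trh, a fixed set of pathway genes, list members past 2-fold and the 5 nearest profiles, though the text does not name every list member past 2-fold in every comparison. Examples within 2-fold and markers were picked among the listed genes after their values were seen. Members and lists were chosen with earlier results of these data known.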

Additional observations from a re-analysis of the deposited data

How the results depend on the processing

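No paired analysis was possible because each group has 1 array, and for the same reason no array could be left out. Of the member differences under 9 alternatives (other scalings, floors, a pseudocount and low values read with 1 decimal), 150 moved by less than the SD between probe sets of a gene, 12 moved further and 0 turned round. All 12 were of Trh. Every called member difference was called under all 9. The scale factors were 0.9997 to 1.0001, so the setting with no further scaling nearly repeats the main one. Penk lay above every floor used on all arrays, so the floor settings and the reading with 1 decimal could hardly move it. With the floor at the 60th percentile (66.2), M23643cds_s_at gave 1.09 for terminal heart failure over SD control and 1.09 over losartan-treated dTGR, and 0.0 for dTGR against SD control, while M36317_s_at gave 2.18 for terminal heart failure against each of SD control, dTGR and losartan-treated dTGR. With the floor at the 25th percentile or none, M36317_s_at gave 4.32 for terminal heart failure against dTGR, 0.95 for losartan-treated dTGR against dTGR and -1.41 for dTGR against SD control, which is past 2-fold. These follow from where the floor lies.

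Of the list medians, 426 stayed and 6 moved. With the higher floor the hormone list gave 1.85 (0.55 as reported) in terminal heart failure against SD control and 0.79 (0.08) in losartan-treated dTGR against SD control, the granins -0.13 (-0.85) in terminal heart failure against SD control, and the opioid list 0.36 (1.45) in dTGR against SD control and -0.43 (-1.45) in losartan-treated dTGR against dTGR, where no floor gave -2.43. Of 9 alternatives, 3 moved the nearest genes of Penk and 5 those of Trh, with 1 to 3 of 5 shared.

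Counts of genes past 2-fold moved with the floor. Given as 25th percentile, 60th percentile and, where it moved too, no floor, genes higher in terminal heart failure numbered 350, 142 and 323 against SD control, 438 and 145 against dTGR, and 404 and 149 against losartan-treated dTGR. Genes lower numbered 455 and 141, then 764, 138 and 709, then 474, 129 and 446 in the same comparisons. In dTGR against SD control 580, 59 and 530 were higher and 377, 77 and 350 lower. In losartan-treated dTGR against dTGR 418, 90 and 385 were higher and 651, 94 and 600 lower, and against SD control 224, 27 and 197 were higher and 308, 61 and 277 lower. With medians made equal, 159 were higher and 379 lower in dTGR against SD control, 340 higher and 219 lower in losartan-treated dTGR against dTGR, and 442 higher and 226 lower in terminal heart failure against dTGR. Signal near the floor limits what Trh shows outside terminal heart failure.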
